A study of Brassica rapa with 6 samples.

Results

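Stomata are the pores through which a leaf takes up carbon dioxide and loses water, and each is made by a short series of epidermal cell divisions. In Arabidopsis, secreted cysteine-rich peptides of the EPIDERMAL PATTERNING FACTOR (EPF) family tell neighbouring cells whether to enter that series, and they are read at the cell surface by ERECTA-type receptor kinases together with the receptor-like protein TOO MANY MOUTHS (TMM). A MAP kinase cascade headed by YODA carries the signal inward. The basic helix-loop-helix (bHLH) factors SPEECHLESS, MUTE and FAMA then act in turn to start the lineage, to end its divisions and to form the guard cells. Some EPF-like (EPFL) peptides use the same receptors for the growth of stems, leaf margins and the shoot apex.

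The genes described here are those whose annotated transcript carries a description naming an EPIDERMAL PATTERNING FACTOR, SPEECHLESS, MUTE, FAMA or TOO MANY MOUTHS. This gave 20 of 45517 genes: 11 peptide genes, 2 TMM genes and 7 genes of the bHLH factors, spread over 9 chromosomes. Whole-transcriptome libraries of wild-type Chinese cabbage (Brassica rapa) from a greenhouse were compared between petiole, the stalk of the leaf, and leaf, with 3 libraries for each tissue. Ribosomal RNA was depleted and stranded libraries were made from total RNA, per the labels' protocols. Whether each library stands for a different plant is not stated in the labels, so p-values reflect the spread between these libraries, and that spread may be technical. Gene values are deposited estimated counts summed over a gene's annotated transcript, its variants with a shared splice junction and fragments contained in it.

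The petiole libraries held 120805715 to 132861243 linear counts, of which 76.3% to 78.3% fell in gene values, and the leaf libraries 111518411 to 121161682, of which 59.2% to 63.6% did. Log2 levels correlated across genes at 0.956 to 0.958 among petiole libraries, at 0.953 to 0.957 among leaf libraries and at 0.773 to 0.779 between the tissues. Genes of green mesophyll (light-harvesting proteins and the Rubisco small chain) matched the tissue labels: 27 of 28 tested were lower in petiole, and their summed level was 548 to 598 CPM in petiole against 8660 to 9022 CPM in leaf. Levels are gene values as CPM, counts scaled to the TMM-normalized total of a library's gene values, unless FPKM is named. That total leaves out the linear counts outside gene values, whose share was larger in leaf than in petiole. Here TMM in TMM-normalized is the scaling method and not the receptor. Fold changes are petiole relative to leaf.

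The called EPFL1, EPFL2 and EPFL6 genes were higher in petiole, whereas the peptide genes EPF1, EPF2 and EPFL9 and every called bHLH gene were lower. Of the 20 genes, 16 had a mean of at least 10 counts and were tested, by edgeR's quasi-likelihood test with Benjamini-Hochberg adjustment over all 27984 tested genes, with a call at adjusted p below 0.05. Among them 5 were higher in petiole and 8 lower. Over all tested genes 31.4% were called higher and 31.0% lower, so a call in itself does not set these genes apart. The rises were in EPFL1 and EPFL2, both EPFL6 genes and a TMM gene. The falls were in EPF1, EPF2, EPFL9, the other TMM gene, a SPEECHLESS gene, 2 MUTE genes and a FAMA gene. The 3 petiole values and the 3 leaf values did not overlap in 14 of the 16 tested genes, a count that includes EPFL3, which was not called. Over all tested genes 71.2% had no overlap. In bulk tissue, fewer cells of a type and less RNA per cell cannot be told apart.

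**Figure D1:**
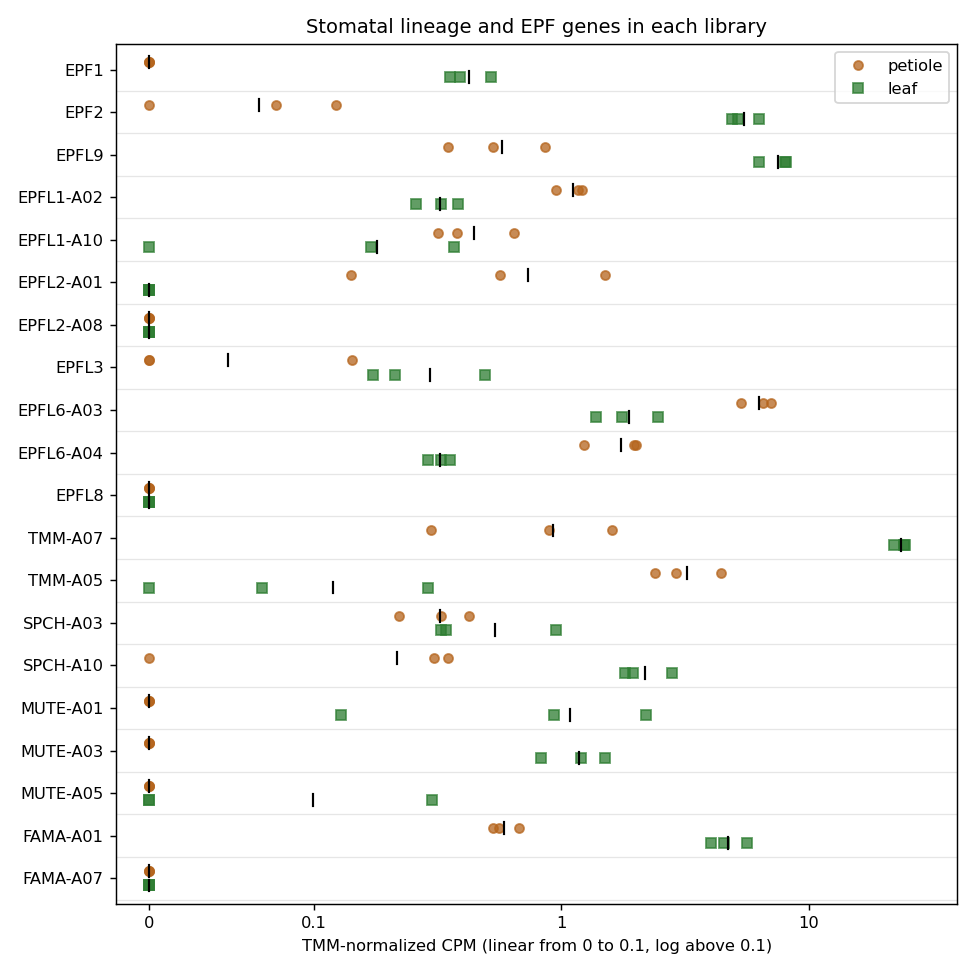
TMM-normalized CPM of each gene in every library, with petiole as circles above leaf as squares and a black tick at the mean of 3 libraries. The axis is linear from 0 to 0.1 CPM and logarithmic above. EPF2, EPFL9 and TMM on A07 sat above 4 CPM in every leaf library and below 2 CPM in every petiole library, and both EPFL6 genes sat higher in petiole.

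The inhibitory peptides EPF1 and EPF2 were nearly silent in petiole. EPF2 (BraA09g031060.3C, A09:24024281-24025349), which in Arabidopsis limits entry into the lineage, had 8, 12 and 0 counts in petiole against 340, 380 and 444 counts in leaf. Its level was 0.0664 ± 0.0619 CPM in petiole and 5.47 ± 0.745 CPM in leaf (SD, n = 3), 82.3-fold lower in petiole (log2 fold change -6.31, SE 0.763, edgeR adjusted p = 0.000170). The log2 fold change was -7.04 without petiole replicate 2 and -5.76 without petiole replicate 3. EPF1 (BraA09g055980.3C, A09:40246627-40247035), which in Arabidopsis acts later and keeps stomata apart, had 0 counts in every petiole library against 27, 38 and 25 counts in leaf. It was at least 41.3-fold lower in petiole (edgeR adjusted p = 0.00378), taking 3 counts over the petiole libraries, 0.0102 CPM, as the most that a 0 allows. Such bounds cover counting error only. In EPFL1 on A10 and SPEECHLESS on A10, described further on, a library at 0 stood beside others of its tissue with up to 27 and 34 counts, a wider spread than counting error.

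The activating peptide fell as well. EPFL9 (BraA08g006830.3C, A08:5712411-5712968), known in Arabidopsis as STOMAGEN, is made by mesophyll cells and promotes stomata by competing with the inhibitory peptides. It had 55, 84 and 32 counts in petiole against 436, 588 and 572 counts in leaf. All leaf values stood above all petiole values. It averaged 0.578 ± 0.258 CPM in petiole and 7.49 ± 1.05 CPM in leaf (SD, n = 3), with a log2 change of -3.69 (SE 0.356, edgeR adjusted p = 4.41e-05). The mesophyll list was lower in petiole too, with 3 of its 31 genes at 0 in all petiole libraries, and its part in the falls of EPF1, EPF2 and EPFL9 was not tested.

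The EPFL6 genes, whose Arabidopsis counterpart acts through ERECTA-type receptors in stem growth, rose together. In the deposited annotation both carry the term negative regulation of stomatal complex development, which EPF1 and EPF2 carry too. EPFL6 on A03 (BraA03g016180.3C, A03:7468308-7470150) had 556, 644 and 650 counts in petiole against 96, 129 and 173 counts in leaf. Its level of 6.33 ± 0.884 CPM in petiole stood beside 1.87 ± 0.546 CPM in leaf (SD, n = 3; log2 fold change 1.76, SE 0.263, edgeR adjusted p = 0.000587). EPFL6 on A04 (BraA04g021610.3C, A04:16188744-16190248) had 129, 192 and 185 counts in petiole and 20, 26 and 23 counts in leaf. Its petiole libraries were all above its leaf libraries by more than the spread within either tissue, with 1.74 ± 0.431 CPM in petiole and 0.324 ± 0.0340 CPM in leaf (SD, n = 3; log2 fold change 2.42, SE 0.441, edgeR adjusted p = 0.00176). Both calls rest on transcripts that differ from the annotated ones. With annotated transcripts alone the A03 gene had a log2 fold change of 0.44 (edgeR adjusted p = 0.795; 2.36e-08 to 0.795 over 13 alternatives), and the A04 gene, with 6, 17 and 9 such counts in petiole and 0 in every leaf library, was below the count minimum and not tested. Genes of dividing cells were higher in petiole as well, and their part in the EPF-like rises was not tested.

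Among the other EPF-like peptides, a copy each of EPFL1 and EPFL2 rose. EPFL1 on A02 (BraA02g003420.3C, A02:1679507-1679950) had 121, 93 and 112 counts in petiole against 18, 28 and 23 counts in leaf. It averaged 1.11 ± 0.142 CPM in petiole and 0.323 ± 0.0621 CPM in leaf (SD, n = 3; log2 fold change 1.77, SE 0.510, edgeR adjusted p = 0.0164). An unspliced transcript that spans the gene, left out of the gene value, had 123, 100 and 165 counts in petiole and 16, 2 and 24 counts in leaf, and was not called on its own (edgeR adjusted p = 0.0858). EPFL2 on A01 (BraA01g001190.3C, A01:564130-564658), from a gene that in Arabidopsis acts in the growth of leaf teeth, had 59, 147 and 13 counts in petiole and 0 in every leaf library. It was at least 52.2-fold higher in petiole (edgeR adjusted p = 0.00635), against 0.0141 CPM for 3 counts over the leaf libraries, but its petiole level of 0.736 ± 0.695 CPM (SD, n = 3) varied about as much as its own size. Without petiole replicate 2 its fitted log2 change was 7.86, against 8.96 with all libraries.

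The second EPFL1 gene, EPFL3 and 2 further peptide genes gave no call. EPFL1 on A10 (BraA10g027570.3C) had 33, 37 and 59 counts in petiole and 0, 27 and 12 counts in leaf (log2 fold change 1.30, SE 1.26; edgeR adjusted p = 0.400), and the tissues overlapped in CPM. Its log2 fold change was 0.71 without leaf replicate 1 and 2.36 without leaf replicate 2. EPFL3 (BraA03g036180.3C) had 0, 14 and 0 counts in petiole and 12, 36 and 15 counts in leaf (log2 fold change -2.58, SE 1.65; edgeR adjusted p = 0.207). Petiole replicate 2 decides that result: without it EPFL3 is at 0 in petiole and passes the test (edgeR adjusted p = 0.0176; 0.0176 to 0.410 over 13 alternatives). EPFL8 (BraA02g026150.3C) and EPFL2 on A08 (BraA08g021680.3C) had 0 counts in all libraries.

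**Figure D2:**
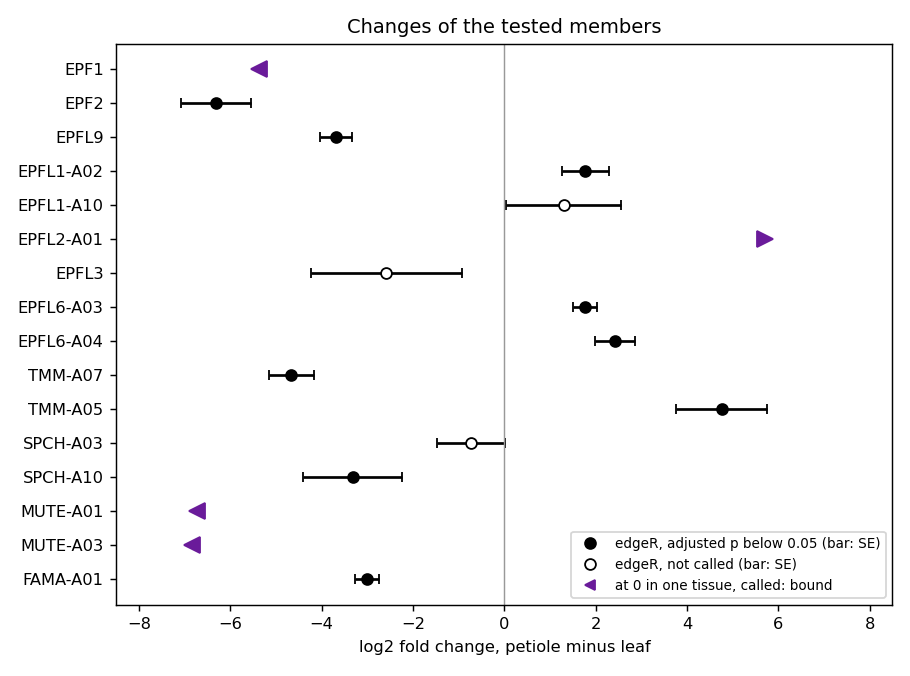
Log2 fold change of petiole relative to leaf for the 16 tested genes. Circles are edgeR estimates with an SE derived from the test's F statistic, filled where the adjusted p is below 0.05. Triangles mark genes at 0 in all libraries of a tissue, placed at the bound that 3 counts allow. EPF1, EPF2, EPFL9 and the called bHLH genes lie left of 0. The called EPFL1, EPFL2 and EPFL6 genes lie right of it, while the TMM genes lie on opposite sides.

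The TMM genes moved in opposite directions. TMM is a receptor-like protein with leucine-rich repeats and no kinase domain of its own, and it shapes which EPF peptide the ERECTA-type kinases respond to. TMM on A07 (BraA07g025640.3C, A07:19728097-19729545) had 166, 29 and 82 counts in petiole against 1536, 1791 and 1707 counts in leaf. It averaged 0.927 ± 0.651 CPM in petiole and 23.6 ± 1.31 CPM in leaf (SD, n = 3), 25.5-fold lower in petiole (log2 fold change -4.66, SE 0.499; edgeR adjusted p = 8.25e-05). Petiole replicate 1 had the highest petiole count, and without it the log2 fold change was -5.32. Without petiole replicate 2, which had the lowest, it was -4.24.

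TMM on A05 (BraA05g003140.3C, A05:1697662-1698933) had 249, 284 and 407 counts in petiole and 20, 5 and 0 counts in leaf. It averaged 3.24 ± 1.06 CPM in petiole and 0.119 ± 0.151 CPM in leaf (SD, n = 3), 27.2-fold higher in petiole (log2 fold change 4.76, SE 1.0; edgeR adjusted p = 0.00380). Without leaf replicate 1 its log2 change was 6.48, and without leaf replicate 3 it was 4.17. Per length, the A05 gene held 63.1%, 91.9% and 85.0% of the summed FPKM of the pair in petiole, and 1.45%, 0.257% and 0% in leaf. The shares did not overlap (two-sided exact permutation test over libraries, p = 0.1, the lowest that 3 against 3 can give; 0.133 adjusted over 4 such pairs). In the deposited annotation the A07 gene carries the term stomatal complex morphogenesis and the A05 gene carries no stomatal term. Of the 20 genes 11 carry such a term, and those without one include the FAMA, EPFL1 and EPFL2 genes. The names of genes without one, the A05 gene among them, rest on their descriptions alone.

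Of the 7 bHLH genes, 5 were tested and 4 were lower in petiole, with at least 1 for each of SPEECHLESS, MUTE and FAMA. Over all tested genes 31.0% were lower. Of the SPEECHLESS genes, whose product starts the lineage, the A10 copy (BraA10g011570.3C, A10:9514824-9516771) had 0, 34 and 28 counts in petiole against 194, 132 and 137 counts in leaf. It averaged 0.217 ± 0.189 CPM in petiole and 2.18 ± 0.534 CPM in leaf (SD, n = 3; log2 fold change -3.33, SE 1.09, edgeR adjusted p = 0.0290). This call was lost, with edgeR adjusted p of 0.0512 to 0.0776, when any single leaf library or petiole replicate 3 was left out, and over 13 alternatives the adjusted p ran from 0.000618 to 0.120. Without petiole replicate 1, the library at 0, the log2 fold change was -2.74. The A03 copy (BraA03g014640.3C) had 23, 32 and 39 counts in petiole and 66, 25 and 23 counts in leaf, which overlap (log2 fold change -0.74, SE 0.747; edgeR adjusted p = 0.420). Without leaf replicate 1 its log2 fold change was -0.05, and as the difference in log2(FPKM + 1) it was 0.00848.

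MUTE was listed at 0 throughout the petiole libraries. MUTE on A03 (BraA03g032540.3C, A03:16144051-16145195) had 0 counts in each petiole library against 104, 88 and 58 counts in leaf, at least 115-fold lower (edgeR adjusted p = 0.000561). MUTE on A01 (BraA01g042160.3C, A01:28188819-28190107) had 0 counts in each petiole library against 65, 160 and 9 counts in leaf, at least 106-fold lower (edgeR adjusted p = 0.00505), with leaf replicate 2 giving most of its leaf level. Without that library its fitted log2 change was -8.53, against -9.52 with all libraries. A further MUTE gene on A05 (BraA05g039230.3C) was seen in leaf replicate 3 alone, with 21 counts, and was not tested. It lies within the span of a long assembled transcript of another gene on the same strand, which had 0, 2 and 6 counts in petiole and 5443, 7062 and 4824 counts in leaf.

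FAMA, which forms the guard cells, fell with a small spread. FAMA on A01 (BraA01g030050.3C, A01:20113034-20114931) had 55, 55 and 62 counts in petiole against 390, 295 and 321 counts in leaf. The level was 0.588 ± 0.0760 CPM in petiole and 4.74 ± 0.805 CPM in leaf (SD, n = 3; log2 fold change -3.01, SE 0.271, edgeR adjusted p = 2.94e-05). With annotated transcripts alone FAMA on A01 was not called (log2 fold change -2.23, edgeR adjusted p = 0.161; 3.50e-19 to 0.161 over 13 alternatives). The FAMA gene on A07 (BraA07g008990.3C) had 0 counts in all libraries.

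Levels of different genes can be compared per length, as deposited FPKM within a tissue. In petiole EPFL6 on A03 led with 6.65 ± 0.939 FPKM, followed by EPFL1 on A02 with 2.12 ± 0.261 FPKM, TMM on A05 with 1.71 ± 0.546 FPKM, EPFL6 on A04 with 1.43 ± 0.358 FPKM and EPFL2 on A01 with 1.34 ± 1.26 FPKM (SD, n = 3 each). EPFL6 on A03 stood clear of the next gene in every petiole library, whereas each of the 4 genes after it overlapped the next in their values. In leaf EPFL9 led with 8.74 ± 1.40 FPKM, then TMM on A07 with 6.51 ± 0.415 FPKM, EPF2 with 6.05 ± 0.827 FPKM and FAMA on A01 with 1.34 ± 0.226 FPKM (SD, n = 3 each). TMM on A07 and EPF2 overlapped there, and EPFL9 was above both in each leaf library. Summed over EPFL1, EPFL2, EPFL3, EPFL6 and EPFL8, the EPF-like peptides held 10.5, 14.1 and 12.8 FPKM in petiole and 1.66, 2.67 and 2.52 FPKM in leaf. The bHLH genes summed to 0.400, 0.732 and 0.811 FPKM in petiole and 4.70, 4.29 and 3.04 FPKM in leaf. FPKM is shifted towards petiole, so the sums of the 2 tissues do not give fold changes on the CPM scale. EPFL6 on A03 averaged 6.65 FPKM in petiole and 1.23 FPKM in leaf, but was 3.38-fold higher by CPM. The median of all tested genes was shifted by 0.48 towards petiole in log2(FPKM + 1). The differences of all 13 called genes on that scale lay on the same side of this median as with edgeR.

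**Figure D3:**
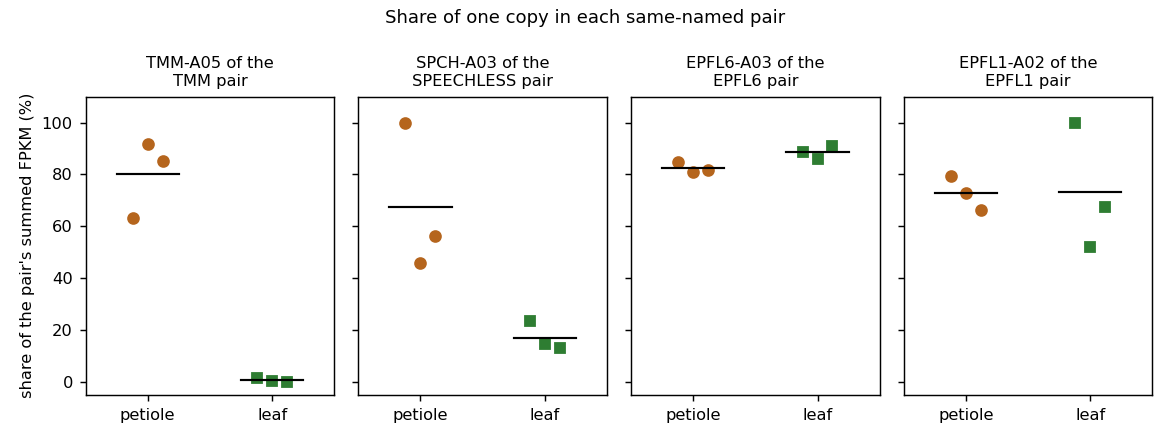
Share of the summed FPKM that 1 of 2 same-named genes took in each library, for TMM, SPEECHLESS, EPFL6 and EPFL1, with petiole as circles left of leaf as squares and a black line at the mean of 3 libraries. The A05 gene took most of the TMM level in petiole and under 2% of it in leaf, while the A03 gene led the EPFL6 pair in all 6 libraries.

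In the EPFL6 pair the same gene led in every library. EPFL6 on A03 held 82.5% ± 1.91 of the pair's FPKM in petiole and 88.6% ± 2.52 in leaf (SD, n = 3; exact permutation test p = 0.1, adjusted 0.133). EPFL1 on A02 held 72.9% ± 6.47 in petiole and 73.2% ± 24.4 in leaf (SD, n = 3; exact permutation test p = 0.9, adjusted 0.9). The EPFL1 shares showed no difference beyond its spread in leaf. SPEECHLESS on A03 held 67.4% ± 28.7 in petiole and 17.1% ± 5.63 in leaf (SD, n = 3; exact permutation test p = 0.1, adjusted 0.133). Reads shared by copies could be split between them, and how such reads were counted is not given in the sources used here, so values of single copies are uncertain to that extent.

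Of the 24 transcripts behind the 20 gene values, 19 were tested as isoforms, and 4 were called higher and 7 lower in petiole by edgeR over 52982 isoforms, where 15.4% of all isoforms were called higher and 14.1% lower. In 3 genes a form that differs from the annotated one held most of the counts. For EPFL6 on A03 it took 97.1%, 96.3% and 96.3% of the counts in petiole and 77.1%, 99.2% and 93.6% in leaf. For FAMA on A01 it took 78.2%, 96.4% and 88.7% in petiole and 89.7%, 98.0% and 92.2% in leaf. For EPFL6 on A04 it took 91.1% to 95.3% in petiole and all counts in leaf. In EPFL9 the second form took 12.7%, 39.3% and 0% in petiole and 31.5% to 39.0% in leaf, overlapping shares. TMM on A05 (edgeR adjusted p = 0.0671) and SPEECHLESS on A10 (edgeR adjusted p = 0.176), each with a single transcript, were called as genes but not in the isoform test. No circular RNA was seen from these genes: of 886 deposited circular RNAs, 0 had such a gene as host and 0 overlapped one.

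Genes of the receptors and kinases that read the peptides included rises and falls. Of 51 genes listed for the receptors, the MAP kinase cascade and the partners and polarity proteins of the lineage, 41 were tested, with 19 higher and 14 lower in petiole by edgeR, where 31.4% of all tested genes were higher and 31.0% lower. The split depends on the scale: limma on log2(FPKM + 1), where the median of all genes is shifted towards petiole, gave 29 higher and 5 lower. Among 16 receptor genes, 9 rose and 5 fell, and the median log2 change was 0.38 beside 0.01 for all tested genes. An ERECTA gene (BraA09g052700.3C), the receptor kinase known for stem and organ growth, averaged 144 ± 7.76 CPM in petiole and 49.8 ± 3.83 CPM in leaf (SD, n = 3; log2 fold change 1.53, SE 0.0705, edgeR adjusted p = 6.28e-07). The second ERECTA gene (BraA09g010280.3C) was not called (log2 fold change 0.04). Of 6 genes named for the ERECTA-like kinases ERL1 or ERL2, 3 rose and 3 fell. In log2(FPKM + 1) an ERL1 gene that fell (BraA10g002000.3C, -0.53) was 0.21 higher in petiole (limma adjusted p = 0.0396). The ERL2 gene that fell was 0.25 higher there, without a call (limma adjusted p = 0.0755). An ERL1 gene on A05 (BraA05g022590.3C) had a log2 fold change of 1.90, and an ERL1 gene on A09 (BraA09g001320.3C) had one of -1.76. Of 8 tested genes named for the SERK co-receptors, 5 rose and 2 fell. The largest rise (BraA01g013300.3C, 1.24) and the larger fall (BraA03g042450.3C, -0.85) were both in SERK4 genes. The most abundant, a SERK1-like gene (BraA02g009300.3C, 0.53), averaged 279 CPM in petiole and 193 CPM in leaf.

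In the kinase cascade 6 of 10 tested genes rose and 3 fell, where 31.4% of all tested genes rose and 31.0% fell. The median log2 change of the cascade was 0.45. The MAP kinase 6 genes rose by small amounts (BraA05g003830.3C, 0.59, and BraA03g023020.3C, 0.54). A MAP kinase kinase 5-like gene (BraA01g032420.3C) rose by 4.41 on the log2 scale, with 64, 49 and 68 counts in petiole against 0, 6 and 0 counts in leaf. A MAP kinase kinase 4-like gene (BraA05g018200.3C, -1.80), a YODA-like gene (BraA09g041510.3C, -1.54) and MAP kinase 3 (BraA06g020840.3C, -0.59) fell. Of 3 tested YODA genes, however, 2 rose and 1 fell. Those that rose were BraA07g017070.3C (0.50, 34.1 CPM in petiole and 24.1 CPM in leaf) and BraA09g015090.3C (0.36, 59.5 and 46.4 CPM). The YODA-like gene that fell was scarcer, at 1.71 CPM in petiole and 4.95 CPM in leaf. MAP kinase 3 turned direction in log2(FPKM + 1), where it was 0.16 higher in petiole (limma adjusted p = 0.00439).

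Among partner factors and polarity proteins 4 of 15 tested genes rose and 6 fell, with a median of -0.12. Of all tested genes 31.4% rose and 31.0% fell. ICE1 and SCREAM2 are the bHLH partners with which SPEECHLESS, MUTE and FAMA pair. A SCREAM2-like gene on A04 (BraA04g028540.3C) averaged 4.70 ± 0.264 CPM in petiole and 0.110 ± 0.191 CPM in leaf (SD, n = 3; log2 fold change 5.41, SE 1.19, edgeR adjusted p = 0.00462). The more abundant SCREAM2-like gene on A08 (BraA08g030710.3C) averaged 29.0 ± 0.460 CPM in petiole and 58.4 ± 2.73 CPM in leaf (SD, n = 3; log2 fold change -1.01). POLAR, a protein of the dividing precursor, fell in 1 of 2 tested genes (BraA03g056970.3C, -1.46; edgeR adjusted p = 0.0393). The 3 genes of its partner BASL were below the count minimum. The other named changes were in relatives of BREVIS RADIX, with BREVIS RADIX-like 3 (BraA06g000810.3C, 1.78) and BREVIS RADIX-like 1 (BraA05g009640.3C, 1.38) higher, and a BREVIS RADIX-like gene (BraA08g009040.3C, -1.60) and BREVIS RADIX-like 4 (BraA03g009670.3C, -1.06) lower.

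**Figure D4:**
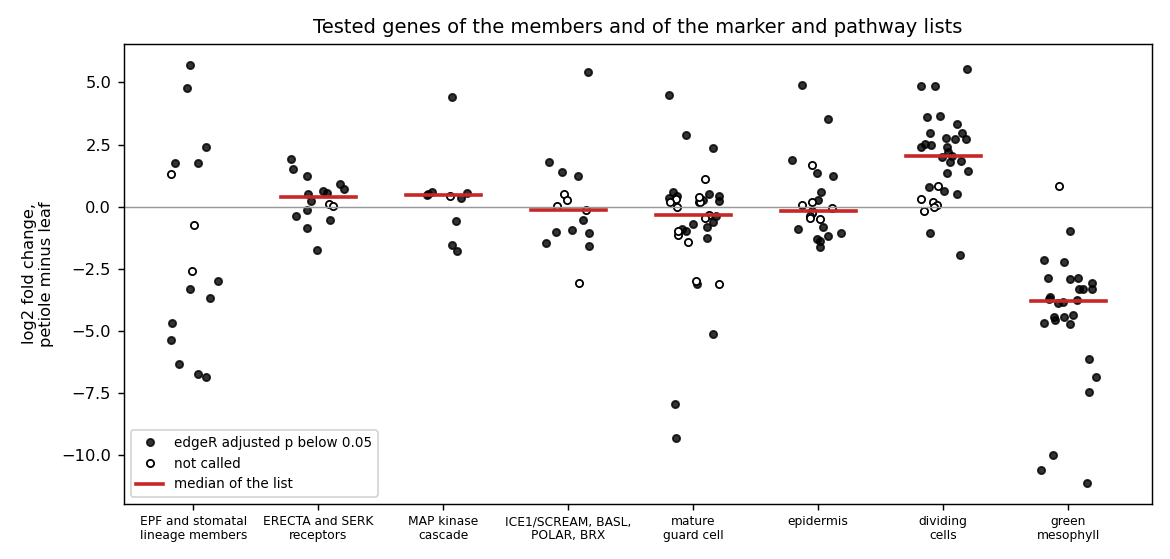
Log2 fold change of petiole relative to leaf for each tested gene of the EPF and stomatal lineage genes and of 7 gene lists, filled where edgeR's adjusted p is below 0.05, with a red line at the median of each of the 7 lists. Genes at 0 in a tissue are placed at their bound. The lineage genes spread from below -6 to above 5, the receptor, kinase and epidermis lists centre near 0, and the dividing-cell and mesophyll lists lie above and below it.

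Markers of the cells that could carry these genes were read from the same libraries. Of 36 genes listed for mature guard cells, 35 were tested, with 10 higher and 11 lower in petiole. Over all tested genes 31.4% were higher and 31.0% lower. The guard cell list had a summed level of 787 to 801 CPM in petiole and 830 to 845 CPM in leaf. However, 25 of the 36 are kinases described as HT1 or HT1-like, and all of the rises were among these. They included BraA05g015530.3C (4.49), BraA05g024480.3C (2.88) and BraA07g024070.3C (2.37). The 11 other genes, set apart after the list was seen, summed to 41.3 to 45.8 CPM in petiole and 53.4 to 60.8 CPM in leaf. Of the 10 tested, 5 fell. The most abundant of them, an SRK2E-like gene (BraA03g058470.3C), was not called. It averaged 32.4 ± 3.11 CPM in petiole and 28.6 ± 2.97 CPM in leaf (SD, n = 3). SLAC1 (BraA06g009180.3C), an anion channel that acts in stomatal closure, was at 0 in every petiole library against 416, 373 and 569 counts in leaf. An aluminum-activated malate transporter 12-like gene (BraA03g047900.3C) was at 0 there too, against 194, 188 and 153 counts in leaf. The guard cell factor DOF5.7 (BraA06g029070.3C) fell as well, by 5.12 on the log2 scale. The potassium channels KAT1 (BraA09g021740.3C, -0.45) and KAT2 (BraA01g009770.3C, -0.02) were not called.

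Of 23 tested epidermis identity genes, 7 rose and 7 fell, shares close to the 31.4% and 31.0% of all tested genes. Their median log2 change was -0.17, their summed level was 254 to 268 CPM in petiole and 244 to 259 CPM in leaf, and 9 of 33 listed genes were at 0 in each tissue. Protodermal factor 1-like on A05 (BraA05g003100.3C) rose by 4.88, followed by an HDG8-like gene (BraA02g008460.3C, 3.51) and GLABRA 2 (BraA07g025490.3C, 1.87). An HDG11-like gene (BraA07g028750.3C, -1.62), MERISTEM L1 (BraA03g049720.3C, -1.38) and HDG5 (BraA06g041540.3C, -1.30) fell. Of 33 tested genes listed for dividing cells, 25 rose and 2 fell (BraA03g028480.3C and BraA06g011630.3C, cyclin-A2 genes), and the summed level was 235 to 269 CPM in petiole and 122 to 144 CPM in leaf. The list took in a calcyclin-binding protein gene (BraA09g034960.3C, 0.80) by its name alone. Without it, 24 of 32 tested genes rose and 2 fell, and the summed level was 221 to 253 CPM in petiole and 114 to 136 CPM in leaf. The largest rises there were in cyclin-B2-1-like (BraA09g010980.3C, at least 47.1-fold higher), Aurora-3 (BraA05g005240.3C, 4.86) and cyclin-A2-4-like (BraA07g025770.3C, 4.84). In the mesophyll list a chlorophyll a-b binding protein gene (BraA08g028350.3C) and a Rubisco small chain 1B gene (BraA02g017420.3C) were at 0 in petiole, and Rubisco small chain F1 (BraA07g019510.3C) was at -10.59. The part of these cell types in the changes of the lineage genes was not tested.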

How the data were processed

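Per the file headers, the authors deposited estimated counts and FPKM values per assembled transcript and, in a second table, back-spliced read counts per circular RNA with a signal scaled to library size (SRPBM), which was not used here. The submitters' processing notes list the tools StringTie, HISAT2 and TopHat. Tool versions, genome build and treatment of shared reads: not given in the sources used here. Coordinates are as deposited. The deposited FPKM columns hold 0.0001 where the count is 0, set to 0 here. Estimated counts were whole numbers and were summed per gene over class codes =, j and c. A gene or isoform entered the test when its mean over the 6 libraries reached 10 counts. The main test was edgeR 4.0.16 in R 4.3.3 (TMM, quasi-likelihood test, Benjamini-Hochberg over all tested). This test reports no SE. Each SE given is the absolute log2 fold change divided by the square root of the test's F statistic, and is approximate. Alternatives used DESeq2 1.42.0 and limma 3.58.1 on log2(FPKM + 1). The edgeR script was tested on simulated data in which a small part of the genes changed. That does not check the normalization between tissues this different, or calls of genes at 0 in a tissue. The labels do not say whether replicate numbers pair the libraries, and the main test used no block. The genes and lists were chosen with earlier results of these data known. All member genes are named, with up to 3 called rises and 3 called falls of each marker and pathway list by size of change. Some further genes of these lists, and those named from the stomatal annotation terms, were picked outside that rule. Bounds from counts of 0 cover counting error only.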

Additional observations from a re-analysis of the deposited data

How the results depend on the processing

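The counts of 5 stomatal lineage and EPF genes higher and 8 lower in petiole were the same with DESeq2, with RLE size factors, without the count filter, with all transcripts under a gene's name, and when no overlap of the tissues was also asked for (chosen after seeing the data). Leaving out single libraries gave 5 higher in each case and 7 to 9 lower. With annotated transcripts alone the counts were 3 and 6: EPFL6 on A03 (0.44, adjusted p = 0.795), FAMA on A01 (-2.23, adjusted p = 0.161) and SPEECHLESS on A10 (-3.32, adjusted p = 0.120) lost their calls, and EPFL6 on A04 fell below the count minimum. That setting also gave 5065 higher and 4888 lower over all genes, and 7 and 6 over the pathway lists. Limma on log2(FPKM + 1) gave 16497 higher and 4257 lower over all genes, a share of rises of 79.5%, where edgeR gave 50.3%. It gave 6 and 8 for the EPF and lineage genes, with EPFL1 on A10 added (0.60), 29 and 5 for the pathway lists and 17 and 5 for guard cell genes, and turned SPEECHLESS on A03 (BraA03g014640.3C) to 0.00848. By limma on this scale the falls of a SERK4 gene (BraA03g042450.3C, adjusted p = 0.478), BREVIS RADIX-like 4 (BraA03g009670.3C, 0.157), POLAR (BraA03g056970.3C, 0.0940) and HDG5 (BraA06g041540.3C, 0.195) were not called. In the pathway lists, called falls that became called rises included MAP kinase 3 and an ERL1 gene (BraA10g002000.3C, 0.21, limma adjusted p = 0.0396). A SERK4-like gene (0.57, limma adjusted p = 4.13e-05) and an ICE1 gene (0.34, limma adjusted p = 0.0308) did the same. Without the calcyclin-binding protein gene (chosen after the list was seen) the dividing-cell list gave 24 higher and 2 lower. Without the HT1 kinases (chosen after the list was seen) the guard cell list gave 0 higher and 5 lower with edgeR, with 0 higher at unadjusted p below 0.05 and 0 higher with DESeq2, and 1 higher with limma.

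With the replicate number as a block, 4 lineage and EPF genes were higher and 7 lower, with EPFL1 on A02 (adjusted p = 0.0696) and SPEECHLESS on A10 (adjusted p = 0.0631) no longer called. Deviations of same-numbered libraries from their tissue means correlated at -0.002, 0.006 and -0.001. Such values cannot show whether same-numbered libraries share a plant or a batch, and the labels do not say. For isoforms of these genes edgeR made 11 calls, DESeq2 14 and edgeR with RLE size factors 11. Low counts limit these results: in EPFL3 and SPEECHLESS on A10, leaving out 1 library changed the call.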

Other observations

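Beyond the lists, 28 genes carry a deposited annotation term for the patterning, development, morphogenesis or lineage of stomatal complexes. Of these 21 were tested, of which 10 rose and 5 fell in petiole (edgeR), where 31.4% of all tested genes rose and 31.0% fell. The genes named next were chosen after their values were seen, and the rises among them are not the largest of this set. A subtilisin-like protease SBT1.2 gene (BraA10g002620.3C), whose Arabidopsis counterpart SDD1 limits stomatal density, had 38, 0 and 0 counts in petiole against 196, 214 and 153 counts in leaf (log2 fold change -4.40, SE 1.41; edgeR adjusted p = 0.0261). This call was lost with DESeq2 (adjusted p = 0.0720), and petiole replicate 1 held all of its petiole counts. Cytokinin dehydrogenase 6 (BraA09g052550.3C), which breaks down cytokinin, rose by 1.73 and histidine kinase 1 (BraA07g003100.3C) by 2.29 on the log2 scale. The light receptor phytochrome B (BraA05g030340.3C) rose by 0.61.

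The TMM gene that rose in petiole (A05:1697662-1698933) lies near the protodermal factor 1-like gene with the largest rise of the epidermis list (BraA05g003100.3C, A05:1679610-1681032). The interval between them is 16629 bases and holds 3 annotated genes. This was noticed after the values were seen and was not tested.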
